A study of Mus musculus with 8 samples.

Results

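Transcript levels of the interferon-responsive poly(ADP-ribose) polymerase (PARP) genes Parp9, Parp10, Parp11, Parp12 and Parp14 and of Dtx3l, the ubiquitin ligase that pairs with the PARP9 protein, were examined in Tyk2-/- splenic natural killer (NK) cells and CD8+ T cells. These 6 genes were chosen by name, as family members that interferon is known to induce, with earlier results of these data known. They are 6 of the 54232 gene IDs of the deposited count table. The cells were purified by flow cytometry from spleens of mice aged 8 to 12 weeks (strain labelled C57BL/6, given as C57BL/6N background in the methods of the study) that were kept without treatment (labelled homeostatic). Both groups carried the germline Tyk2 knockout, and each consisted of 3 libraries of 3 pooled spleens. The methods of the study name 2 Tyk2-/- lines and fix which was used only for its tumor experiments. TYK2 is a Janus kinase bound to the type I interferon receptor. The series also has 2 libraries of wild-type (WT) CD8+ T cells, which were not used here because the table holds 3 columns with that label and their names do not tell which belong to these samples. Therefore the values compare 2 cell types that are both labelled Tyk2-/-, and nothing in them measures a response to interferon or to the loss of TYK2.

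PARP enzymes transfer ADP-ribose from NAD onto proteins or nucleic acids, either as a single unit or as a chain. The interferon-responsive members act mostly by single-unit transfer, and several of them restrict viruses. PARP9 and PARP14 carry macrodomains, which bind ADP-ribose, and PARP9 forms a complex with DTX3L that couples ADP-ribosylation to ubiquitination. Type I interferon induces such genes through the transcription factor complex ISGF3, which binds the interferon-stimulated response element (ISRE), whereas STAT dimers bind the gamma-activated site (GAS).

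The libraries of CD8+ T cells held 20957384 to 26144478 counts on genes, and those of NK cells held 32848432 to 38573550, with mitochondrial shares of 2.45% to 4.65% and 1.47% to 1.6%, respectively. Values are given as normalised counts, i.e. counts divided by the TMM-scaled library size and rescaled to the average effective size over all 6. Libraries within a cell type are numbered 1 to 3. The 6 NK cell markers summed to 1213109 to 1577208 normalised counts in NK cells and to 1432 to 2955 in CD8+ T cells, the 6 CD8+ T cell markers summed to 7936 to 13546 and 228798 to 268991, Ncr1 had no count in CD8+ T cells and Cd8b1 had none in NK cells. Of the 6 B cell markers, 4 passed 3 counts in at least 1 library of CD8+ T cells and 3 did so for NK cells, with sums of 9001, 4761 and 941 in CD8+ T cell libraries 1, 2 and 3 and of 246 to 1826 in NK cells. Of the 7 myeloid markers, 1 passed 3 counts in a library of CD8+ T cells and 4 did so for NK cells. Their sums were 2, 70 and 142 for CD8+ T cells and 1253, 549 and 406 for NK cells. Cd68 gave most of the counts in NK cells, followed by Siglech (405, 1 and 174 raw counts, none in CD8+ T cells). Lyz2 had 43 raw counts in NK cell library 3, and Csf1r had 22 in NK cell library 2. Adgre1, Fcgr1 and Clec4a1 had no count in any library. The erythroid markers summed to at most 116 in any library. The targeted gene Tyk2 was counted 105, 919 and 554 times in CD8+ T cells, as against 3864, 4245 and 3207 times in NK cells (raw counts). Since counts per exon were not used here, these reads do not tell whether an intact transcript was made. The spread between libraries was wider in CD8+ T cells (common biological coefficient of variation 1.43, against 0.846 in NK cells).

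Of the 6 genes, 3 lie near each other on chromosome 16 (GRCm38). Parp14 (ENSMUSG00000034422, chr16:35832874-35871544, minus strand) ends 54966 bases before Dtx3l (ENSMUSG00000049502, chr16:35926511-35939151, minus strand) begins on the map. Dtx3l and Parp9 (ENSMUSG00000022906, chr16:35938470-35972605, plus strand) are arranged head to head and overlap by 682 bases. Their exons share 367 bases on opposite strands, which are 10.3% of the exon bases of Parp9 and 6.41% of those of Dtx3l. As the use of strand in counting is not stated in the sources used here, reads in these shared bases cannot be assigned to either gene with certainty. Parp10 (ENSMUSG00000063268) lies at chr15:76231174-76243441 on the minus strand, where its annotated span overlaps that of Plec but no exon base is shared. Parp11 (ENSMUSG00000037997, chr6:127446840-127494261, plus strand) and Parp12 (ENSMUSG00000038507, chr6:39086410-39118349, minus strand) are far apart on chromosome 6.

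**Figure D1:**
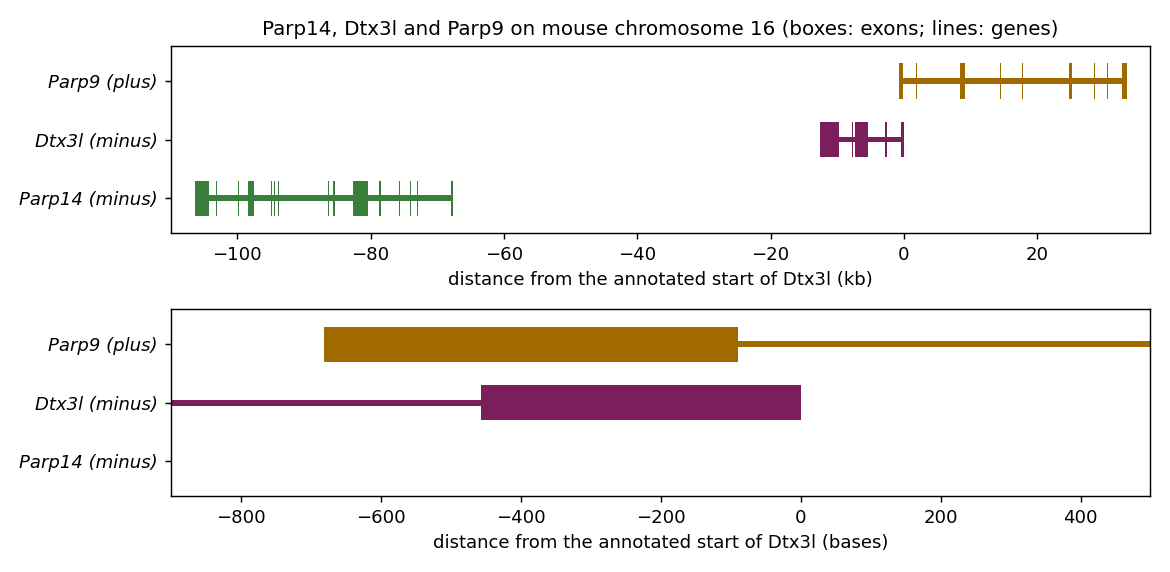
Map of Parp14, Dtx3l and Parp9 in kilobases (top) and bases (bottom) from the annotated start of Dtx3l, with exons as boxes, gene bodies as lines and the strand beside each name. The first exons of Dtx3l and Parp9 overlap, and Parp14 lies apart from them by 54966 bases.

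Promoter sequence was at hand for 3 of the 6 genes (4 RefSeq windows, assembly GRCm38.p6), namely Dtx3l, Parp11 with 2 annotated starts, and Parp12. The 250 bases before each start were searched on both strands for the ISRE letters (GAAA, any 2 bases, GAAA), the shorter ISRE core GAAACT and the GAS letters TTCNNNGAA. Among all 32851 windows of this length, 2.98% held the ISRE letters, 13.5% the core and 7.02% the GAS letters. The sequences below are shown because they hold these matches, which are in capitals. They run 5′ to 3′ on the strand of the gene and stop before its annotated first exon. The Dtx3l stretch (chr16:35939152-35939277, minus strand) also lies in an intron of Parp9, the Parp11 stretch (chr6:127446590-127446839, plus strand) precedes the first of the 2 starts, and the Parp12 stretch (chr6:39118350-39118599, minus strand) has the highest GC content of the 3 windows, 73.6% against 52.8% for Dtx3l and 40.4% for Parp11.
Dtx3l: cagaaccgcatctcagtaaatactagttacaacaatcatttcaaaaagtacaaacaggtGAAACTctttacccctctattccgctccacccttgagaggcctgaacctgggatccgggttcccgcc
Parp11: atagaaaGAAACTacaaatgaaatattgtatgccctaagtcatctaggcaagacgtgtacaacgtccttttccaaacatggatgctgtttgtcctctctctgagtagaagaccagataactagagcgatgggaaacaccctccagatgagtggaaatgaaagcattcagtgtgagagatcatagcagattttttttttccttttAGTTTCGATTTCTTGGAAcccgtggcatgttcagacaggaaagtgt
Parp12: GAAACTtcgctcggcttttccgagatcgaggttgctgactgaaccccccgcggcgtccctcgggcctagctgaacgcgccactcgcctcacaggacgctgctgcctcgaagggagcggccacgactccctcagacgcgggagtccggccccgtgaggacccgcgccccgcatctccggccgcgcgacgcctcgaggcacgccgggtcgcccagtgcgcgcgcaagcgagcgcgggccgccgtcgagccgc
Parp11 was the gene with the full ISRE letters, on the minus strand and beginning 44 bases before its start, where they overlap an ISRE core at 46 bases and a GAS match at 37 bases, and it held another core at 243 bases. Dtx3l held the core at 191 and at 78 bases before the RefSeq start, of which the nearer match falls in the annotated first exon and is not shown. Parp12 held a single core at 250 bases, and the window of the other Parp11 start held none of the 3 motifs. A match of letters is a description of the sequence and no evidence of binding.

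The comparison of the 2 cell types asked how far the tonic levels of these genes depend on the cell type in mice with the Tyk2 knockout. All 6 genes passed the filter of a mean normalised count of at least 10. With edgeR's quasi-likelihood test and Benjamini-Hochberg adjustment over the 14062 genes tested, 1 of the 6, Dtx3l, differed at an adjusted p below 0.05, against 11.4% of all genes tested. It was higher in CD8+ T cells, as were 5.14% of all genes tested, and 0 of the 6 were called higher in NK cells, against 6.24%. At an unadjusted p below 0.05, edgeR gave 2 of the 6 (Dtx3l and Parp9), against 30.7% of all genes. DESeq2 called the same 2 genes, against 29.6% of all genes with its Cook's filter and 28.8% without it. For 3 of the 6 (Dtx3l, Parp9 and Parp11), the lowest CD8+ T cell library was above the highest NK cell library, as it was for 16.1% of all genes tested, and the reverse held for 0 of the 6, against 25.5% (41.6% without overlap in either direction). The median log2 fold change (NK over CD8+ T cells) of the 6 genes was -1.01, beside 0.10 over all genes tested. In bulk samples, fewer cells of a type and less RNA per cell cannot be told apart. The labels give the cell types no replicate number in common. A difference between sets of replicates can therefore not be told apart from one between cell types. The number of counts per library, the mitochondrial share, the myeloid marker sum (higher in NK cells) and, apart from CD8+ T cell library 3, the B cell marker sum separated the cell types in the values given above, and their part in these differences was not tested.

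**Figure D2:**
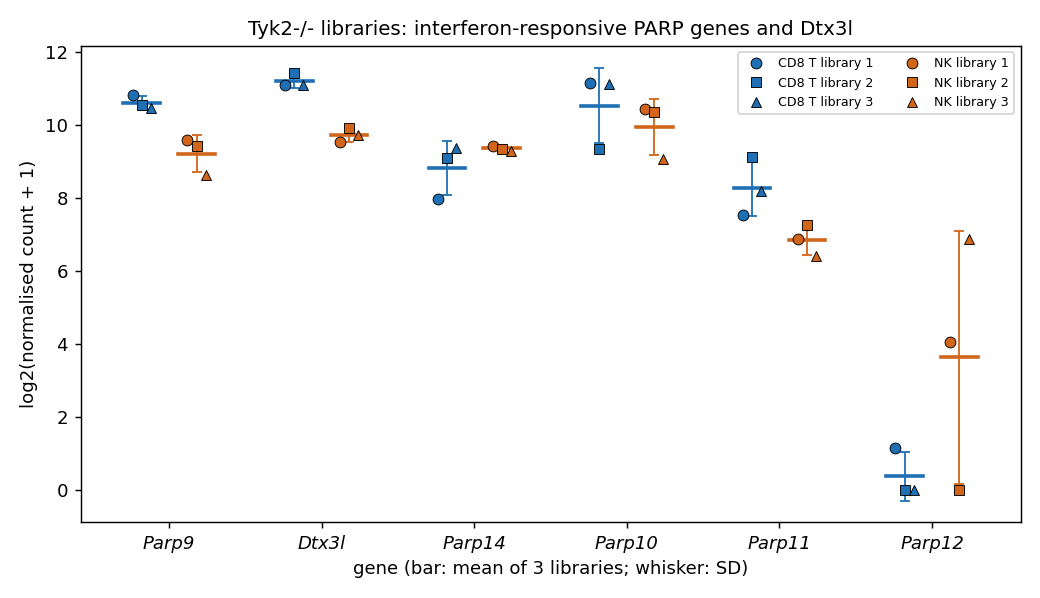
Log2(normalised count + 1) of the 6 genes in each library, CD8+ T cells in blue and NK cells in orange, with a bar at the mean of 3 libraries and whiskers of 1 SD. CD8+ T cell libraries lie above all NK cell libraries for Parp9, Dtx3l and Parp11, the cell types overlap for Parp14 and Parp10, and Parp12 is at or near 0 in 4 of the 6 libraries.

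Dtx3l encodes the E3 ubiquitin ligase partner of PARP9. Its normalised count was 2186, 2737 and 2182 in CD8+ T cells, compared with 737.6, 963.3 and 851.4 in NK cells. Each CD8+ T cell library was thus above each NK cell library, and libraries within a cell type differed little. The means of 2369 ± 319.3 and 850.7 ± 112.9 (SD, n = 3 each) differed 2.78-fold, with a log2 fold change of -1.48 (SE 0.32, 95% interval -2.23 to -0.72, edgeR adjusted p = 0.0321). The call was lost when CD8+ T cell library 2 (adjusted p = 0.0537) or NK cell library 1, 2 or 3 (0.15, 0.121 and 0.142) was left out of the edgeR fit. The log2 fold change stayed between -1.58 and -1.33. Over all genes, the 1600 edgeR calls fell to 476 to 485 without an NK cell library, against 1669 to 1946 without a CD8+ T cell library. Loss of a call without an NK cell library, here and below, is thus not particular to the gene named. The Dtx3l call was also lost without the filter on low counts (edgeR adjusted p = 0.0557) and was kept by DESeq2 (adjusted p = 5.1e-05).

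Parp9 encodes the macrodomain protein of the same complex. It had 1806, 1499 and 1414 normalised counts in CD8+ T cells, compared with 765.8, 689.4 and 394.7 in NK cells. As for Dtx3l, the cell types did not overlap, but NK cell library 3 was lower than the other NK cell libraries. The means of 1573 ± 206.3 and 616.6 ± 196 (SD, n = 3 each) differed 2.55-fold, with a log2 fold change of -1.35 (SE 0.44, 95% interval -2.39 to -0.31). This missed the threshold in edgeR (adjusted p = 0.0903) and passed it in DESeq2 (adjusted p = 0.0168), where 12.7% of all genes tested were called higher in CD8+ T cells. Leaving out any of the 6 libraries kept the log2 fold change between -1.54 and -1.11 and gave no call (edgeR adjusted p from 0.0967 to 0.242).

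Parp14, the other macrodomain PARP of this cluster and a mono-ADP-ribosyltransferase, overlapped between the cell types. Its normalised count was 252, 547 and 663.8 in CD8+ T cells, compared with 690.9, 649.2 and 623.9 in NK cells. NK cell libraries were nearly level and lay at the top of the range of CD8+ T cells, in which library 1 was low. The means were 487.6 ± 212.2 and 654.7 ± 33.82 (SD, n = 3 each), with a log2 fold change of 0.43 (SE 0.61, 95% interval -1.04 to 1.89, edgeR adjusted p = 0.69). The interval holds changes of more than 2-fold in either direction, so that a difference of the size seen for Dtx3l toward NK cells was within it. Parp14 shares 110 exon bases on its own strand with Gm49730, an unconfirmed transcript with 0 to 39 raw counts per library.

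Parp10, a mono-ADP-ribosyltransferase that blocks growth of some viruses, varied widely between libraries. It had 2249, 643.9 and 2232 normalised counts in CD8+ T cells, compared with 1373, 1303 and 537.6 in NK cells. In each cell type 1 library, CD8+ T cell library 2 and NK cell library 3, was lower than the other two by more than 2-fold, and the cell types overlapped. The log2 fold change was -0.67 (SE 0.62, 95% interval -2.16 to 0.82, edgeR adjusted p = 0.508).

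Parp11, a mono-ADP-ribosyltransferase of the nuclear envelope, was expressed at a lower level. Its normalised count was 186, 554.3 and 291.3 in CD8+ T cells, compared with 115.8, 151.6 and 84.51 in NK cells. All CD8+ T cell libraries were above all NK cell libraries, and CD8+ T cell library 2 stood above the others. The means of 343.9 ± 189.7 and 117.3 ± 33.58 (SD, n = 3 each) differed 2.93-fold, the largest ratio of means among the 5 genes expressed in both cell types. Yet the log2 fold change of -1.55 had an SE of 0.92 and a 95% interval of -3.75 to 0.65 (edgeR adjusted p = 0.292). The change of Parp11 was therefore not told apart from 0 at this spread, although its ratio was larger than that of Dtx3l.

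Parp12, a zinc finger PARP of the Golgi apparatus that is induced strongly by interferon in many cells, was nearly absent from CD8+ T cells and varied widely between NK cell libraries. Raw counts were 1, 0 and 0 in CD8+ T cells, compared with 16, 0 and 130 in NK cells. No CD8+ T cell library passed the detection floor of 3 counts, which covers counting error only, whereas NK cells ranged from no count in library 2 to 130 counts in library 3. No fold change is given, since NK cell library 2 had no count either. The difference missed the threshold (edgeR adjusted p = 0.178), and without NK cell library 3 the gene fell below the filter and was not tested.

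The order of levels between genes was compared per kilobase of annotated exon. In CD8+ T cells, Parp10 (504.2 ± 272.1 normalised counts per kb, SD, n = 3), Parp9 (443.3 ± 58.14) and Dtx3l (413.7 ± 55.78) formed an upper group in which neighbours overlapped between libraries. Parp11 (69.35 ± 38.27) and Parp14 (65.74 ± 28.61) followed without overlap with that group but with overlap between themselves, and Parp12 was below both (0.126 ± 0.219). In NK cells the upper group was the same, with 316.2 ± 136.8 for Parp10, 173.8 ± 55.24 for Parp9 and 148.6 ± 19.71 for Dtx3l. Here Parp14 (88.26 ± 4.559) stood apart from Dtx3l above and from Parp11 below (23.66 ± 6.773), and Parp11 overlapped with Parp12 (13.66 ± 19.64).

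**Figure D3:**
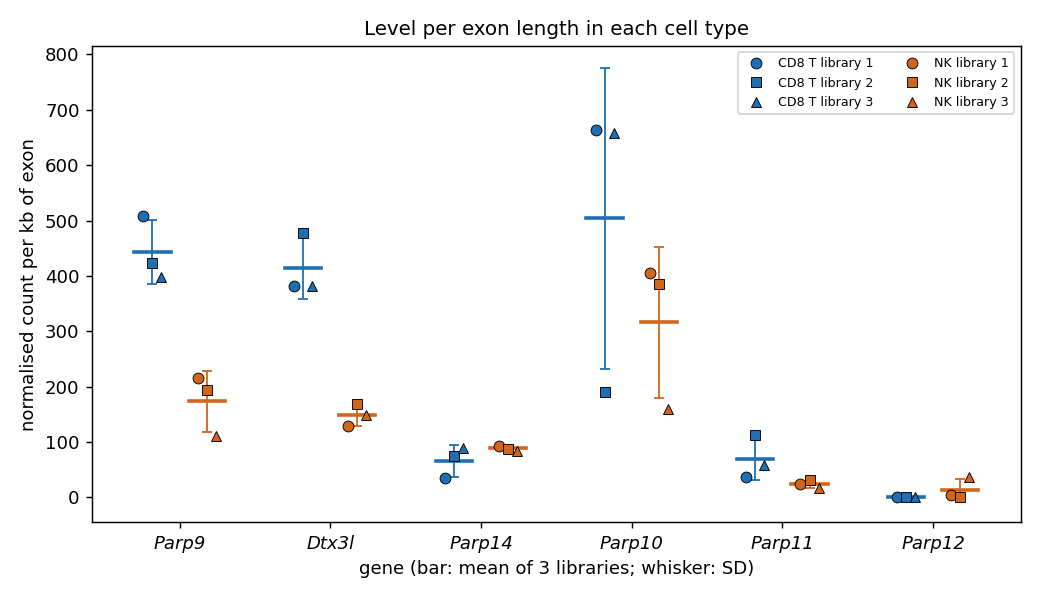
Normalised counts per kb of annotated exon for the 6 genes in each library of CD8+ T cells (blue) and NK cells (orange), on a linear axis, with bars at the mean of 3 libraries and whiskers of 1 SD. Parp9, Dtx3l and Parp10 lie above the other genes in both cell types, and Parp14 lies above Parp11 in each NK cell library.

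Ratios within a library do not depend on its scaling and were used to compare the 3 genes on chromosome 16. Parp9 over Dtx3l, per kb of exon, was 1.33, 0.883 and 1.05 in CD8+ T cells, compared with 1.68, 1.15 and 0.748 in NK cells. The exon lengths used include the 367 bases that these genes share. Values of the ratio above and below 1 were found in each cell type, and the ranges overlapped. Parp14 over Dtx3l was 0.089, 0.154 and 0.235 in CD8+ T cells, compared with 0.723, 0.52 and 0.566 in NK cells, and Parp14 over Parp9 was 0.0668, 0.175 and 0.225 against 0.432, 0.45 and 0.756. Each of these ratios was higher in all NK cell libraries than in any CD8+ T cell library. Dtx3l and Parp9, by which Parp14 is divided here, were themselves higher in all CD8+ T cell libraries, so this is no separate result. Of all single genes tested, 41.6% did not overlap in either direction, and the share over ratios was not computed. With 3 libraries per cell type an exact permutation test cannot give a p below 0.10, and these ratios were formed after the values were seen, so no test was made. Parp10 over Parp9 was 1.3, 0.45 and 1.65 in CD8+ T cells, compared with 1.88, 1.98 and 1.43 in NK cells, with overlap.

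The spread between libraries differed among the genes. In CD8+ T cells, Parp9 and Dtx3l had coefficients of variation of 13.1% and 13.5%, and of the 9093 genes with a mean of at least 100 normalised counts 4.71% and 5.03% had a smaller one. The values of Parp14, Parp10 and Parp11 were 43.5%, 54% and 55.2%, below the median of 57.7% over those genes. In NK cells, where the median was 26.1% over 9529 genes, Parp14 had the smallest of the 6 (5.17%, with 4.33% of genes below it), Dtx3l had 13.3%, and Parp11 (28.6%), Parp9 (31.8%) and Parp10 (43.3%) were above the median. Genes were also counted as on or off within a cell type when a library had 3 raw counts or fewer and another reached 100 normalised counts. In CD8+ T cells this held for 0 of the 5 genes that reached 100, against 25.6% of all such genes. In NK cells it held for 1 of 6, Parp12, against 5.82%.

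Another 11 PARP genes served for comparison and were all tested. Of these, 2 were called, against 11.4% of all genes tested, and both were higher in CD8+ T cells, against 5.14%. DESeq2 called 3 of the 11, all higher in CD8+ T cells, against 12.7% of all genes. For 4 of the 11, all CD8+ T cell libraries were above all NK cell libraries, against 16.1%, and the reverse held for 0, against 25.5%. A fitted log2 fold change below 0 was found for 9 of 11, against 6697 of all 14062 genes tested. Their median was -0.76, beside -1.01 for the 6 genes. Zc3hav1, which encodes a zinc finger antiviral protein without PARP activity that is itself interferon-inducible, had 8880 ± 2208 normalised counts in CD8+ T cells, compared with 1407 ± 309 in NK cells (SD, n = 3 each, log2 fold change -2.66, SE 0.29, edgeR adjusted p = 0.00324) and was called in each of 6 fits that left out a library. Parp3, which acts at DNA breaks, had 2208 ± 228.5 and 479.4 ± 112.9 (log2 fold change -2.20, SE 0.38, edgeR adjusted p = 0.0155), and its call was lost without NK cell library 1, 2 or 3 (edgeR adjusted p = 0.0731, 0.0764 and 0.081). Calls higher in CD8+ T cells were thus also found among PARP genes outside the 6, and whether the lists differ was not tested.

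**Figure D4:**
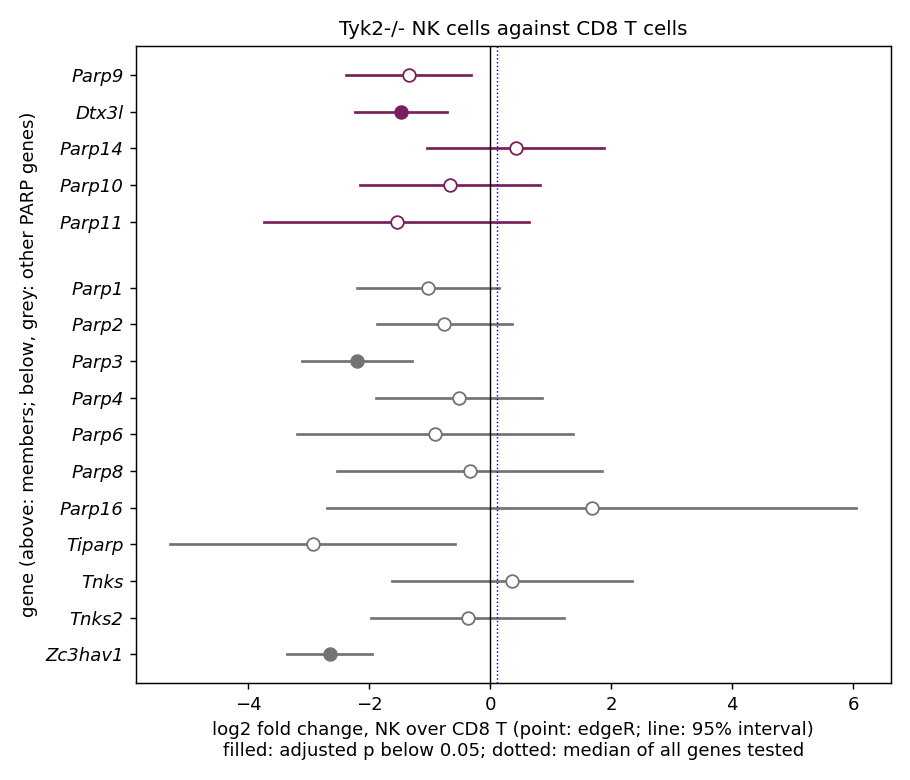
Log2 fold change (NK over CD8+ T cells) of 5 of the 6 genes (purple) and of 11 other PARP genes (grey), as the edgeR estimate with its 95% interval, filled where the adjusted p is below 0.05. Parp12 is left out because its fitted value depends on the prior count, and Dtx3l, Parp3 and Zc3hav1 are the genes called, each below 0.

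Removal of ADP-ribose and its supply were examined through lists of related genes. Of 12 genes for ADP-ribose removal and Deltex relatives of Dtx3l, all tested, 2 were called higher in NK cells and 1 in CD8+ T cells (median log2 fold change -0.46). Over all genes tested, 6.24% and 5.14% were so called. Oard1, an ADP-ribose hydrolase, and Adprh, which removes ADP-ribose from arginine, were higher in NK cells (log2 fold changes 1.39, SE 0.23, and 1.73, SE 0.40, edgeR adjusted p = 0.0139 and 0.0424). Dtx1, a Deltex ligase of the Notch pathway, was higher in CD8+ T cells with 5374 ± 1395 against 1748 ± 143.7 normalised counts (log2 fold change -1.62, SE 0.27, edgeR adjusted p = 0.0142), the same direction as Dtx3l. None of these 3 calls was kept when NK cell library 1, 2 or 3 was left out (edgeR adjusted p from 0.0578 to 0.151), and that of Adprh was also lost without CD8+ T cell library 2 (0.0747). Of 12 genes of NAD supply and use, 10 were tested and 2 were called, against 11.4% of all genes tested (median -0.13). Naprt and Nmnat2, enzymes of NAD synthesis, had no count in CD8+ T cells and were at least 210.0-fold and 42.7-fold higher in NK cells against a floor of 3 counts per library (edgeR adjusted p = 0.013 and 0.0442), calls that were lost without NK cell library 1, 2 or 3 (edgeR adjusted p from 0.0626 to 0.153). Nampt, the rate-limiting enzyme of NAD salvage, which is named after its values were seen, had 802.6, 744.4 and 44.51 normalised counts in CD8+ T cells, compared with 39.9, 24.29 and 16.18 in NK cells. It missed the threshold in edgeR (adjusted p = 0.0828) and passed it without CD8+ T cell library 3 (edgeR adjusted p = 0.0204) and in DESeq2 (adjusted p = 0.00143), higher in CD8+ T cells.

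The interferon receptor chains, their kinases and ISGF3 precede the 6 genes in the pathway. Of 7 such genes, 4 were called, against 11.4% of all genes tested, with 2 in each direction (median log2 fold change 0.68). The receptor chain Ifnar2 and the kinase Jak1 were higher in NK cells (log2 fold changes 1.89, SE 0.23, and 1.39, SE 0.20, edgeR adjusted p = 0.00451 and 0.00995). Irf9 had 3188 ± 1298 normalised counts in CD8+ T cells, compared with 800.1 ± 307.2 in NK cells (SD, n = 3 each, log2 fold change -1.99, SE 0.47, edgeR adjusted p = 0.0431). Irf9, a subunit of ISGF3, thus differed in the same direction as Dtx3l, and Ifnar2 and Jak1 in the other. Stat2, another subunit, which is named after its values were seen, overlapped between the cell types (log2 fold change -1.13, SE 1.25, edgeR adjusted p = 0.59). Whether these levels bear on those of the 6 genes was not tested. The call of Jak1 was lost without NK cell library 1 or 3 (edgeR adjusted p = 0.0561 and 0.053), and that of Irf9 without any library other than CD8+ T cell library 2 (0.0639 to 0.151).

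Of the 6 genes, 5 passed 3 counts in all 6 libraries (83.3%), against 55.4% of all genes tested. Among 32 other interferon-stimulated genes, of which 11 were below the filter and not tested, 10 did so. These 10 were 31.2% of the 32 and were all among the 21 tested, which is the base like that of the 55.4%. Of the 32, 11 were at 3 counts or fewer in all CD8+ T cell libraries, 7 in all NK cell libraries and 6 in all libraries. Of the 32 genes, 21 were tested and 2 were called, against 11.4% of all genes tested, with 1 in each direction (median log2 fold change -0.11). Oas3, an oligoadenylate synthetase, had 805, 8 and 797 raw counts in CD8+ T cells, compared with 0, 1 and 2 in NK cells (edgeR adjusted p = 0.0461), and Ifih1, a sensor of double-stranded RNA, had none in CD8+ T cells, compared with 252, 83 and 181 in NK cells (edgeR adjusted p = 0.0461). The call of Oas3 was lost in 5 and that of Ifih1 in 4 of 6 fits that left out a library, among them each NK cell library (edgeR adjusted p from 0.143 to 0.153).

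Likeness of pattern was measured as the root mean square difference of centred log2(normalised count + 1) over the 6 libraries, where a small value means a similar course. For Dtx3l the nearest genes were Smim27 (0.045) and H2afz (0.084), and for Parp9 they were Smad2 (0.118) and Zdhhc6 (0.137). The distance between Dtx3l and Parp9 was 0.379, which placed Parp9 431st among the genes nearest to Dtx3l and Dtx3l 219th among those nearest to Parp9. Parp11 was nearest to Setd7 (0.131) and Eif1 (0.137) and had Dtx3l in place 186 (0.422). Parp14 was nearest to Gm6030 (0.112) and Flad1 (0.114) and was at least 1.072 from each other gene of the 6. Parp10 was nearest to Stx2 (0.255) and Lysmd2 (0.257), and Parp12, with its counts in NK cell libraries 1 and 3, to Gm43422 (0.434) and Gm35405 (0.457). These places were counted among the genes with a symbol out of the 14062 tested. Place 186, that of Dtx3l for Parp11, was the nearest that any of the 6 genes took for another.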

How the data were processed

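RNA was sequenced as 50-base single-end reads from 500 pg input by a Smart-seq2 type protocol. After trimming (Trimmomatic 0.32) and alignment to mm10 (STAR 2.7.1), the authors counted reads with a single alignment in exons of a GENCODE Basic annotation (summarizeOverlaps, R 3.2.3) and deposited these raw counts per gene. Genes that have near-identical copies may thus be undercounted. Of 104 columns of counts, 6 were used and 98 were not. The columns carry other numbers than the sample labels. Of the gene IDs, 54079 matched a symbol of the GENCODE annotation of GRCm38 and 153 did not.

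Counts were compared in R 4.3.3 with edgeR 4.0.16 (TMM, robust quasi-likelihood test, mean normalised count of at least 10, Benjamini-Hochberg, adjusted p below 0.05). Alternatives were RLE factors, DESeq2 1.42.0 with and without its Cook's filter, no filter, a minimum of 50, and each library left out. Each library is a pool, and whether pools came from separate days is not given in the sources used here. The 6 genes and all lists were chosen with earlier results of these data known. Named were the 6 genes, Tyk2, called genes of the lists (1 of which is not reported here), the 2 nearest patterns per gene and marker genes. Tables used Python 3.11.15, pandas 2.3.3, numpy 2.4.6 and matplotlib 3.10.9.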

Additional observations from a re-analysis of the deposited data

How the results depend on the processing

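Among the 6 genes, RLE factors and a minimum of 50 changed no call. DESeq2 with and without its Cook's filter called 2 of them (Dtx3l and Parp9), no filter called 0, and leaving out a library called 0 to 1. Neither the 6 genes nor the called genes of the lists changed direction under the alternatives run, while the median log2 fold change changed sign with a library left out for the NAD list (-0.27 to 1.05, and 0.49 without the filter on low counts) and the other interferon-stimulated genes (-0.39 to 0.05). Over all genes, the 1600 calls (877 higher in NK cells, 723 in CD8+ T cells) became 3729 (2132 and 1597) with DESeq2 and 4007 (2241 and 1766) without its Cook's filter. They became 476 to 485 (236 to 239 and 240 to 246) with an NK cell library left out. With a CD8+ T cell library left out they became 1669 to 1946 (996 to 1205 and 673 to 741). With a library left out, 1 to 2 other PARP genes, 0 to 3 genes of ADP-ribose removal, 0 to 3 of NAD supply, 1 to 5 of the receptor and ISGF3 list and 0 to 2 other interferon-stimulated genes were called. The last list had 4 calls with DESeq2, 5 without its Cook's filter and 1 without a filter on low counts, and the NAD list had 1 without that filter. Nampt was called higher in CD8+ T cells by DESeq2 with and without its Cook's filter. With a library left out, 0 to 1 of the 6 genes was on or off in NK cells (0 without library 2 or 3). The cause of these changes was not tested. No paired analysis was possible because the labels give the cell types no replicate number in common. A count of 0, as for Parp12 in 3 libraries, allows up to 3 counts. With 3 pools per cell type and the wide spread of CD8+ T cell libraries, intervals of Parp14, Parp10 and Parp11 hold changes of over 2-fold.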
